A study of Mus musculus with 8 samples.

Results

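The genes described here are 37 genes of macrophages, monocytes and other phagocytes, measured in whole kidney of NZBWF1 mice. They were chosen by name, as genes of all leukocytes, of monocytes and macrophages, of tissue-resident macrophages, of lipid-associated and scavenging macrophages, of macrophage activation and of the phagocyte oxidase. The choice was made with earlier results of these data known. Of the 37 genes 35 were on a named probe of the array, out of 19505 named genes and 22206 probes in all, and the expression of Cd68 and Ms4a4a, which were on none, is not analysed here. NZBWF1 mice are a cross of NZB with NZW mice, used as a spontaneous model of lupus in which kidney inflammation appears with age. One group held 4 mice of 8 weeks of age and the other 4 mice of 28 weeks, all of the same strain, with no treatment or other allele named in the labels. Total kidney RNA of each mouse was hybridized to its own 1-colour Clariom S Mouse array, and replicate numbers run from 1 to 4 for the younger mice and from 6 to 9 for the older ones. The comparison asks how kidney expression of these genes differs between the younger and the older mice.

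Macrophages of the kidney are of more than one origin. Some resident cells settle before birth, and genes such as Mrc1, Cd163, Lyve1, Timd4 and Folr2 are used as markers of resident cells. Monocytes enter from the blood through the receptor Ccr2 and become macrophages in the tissue. Their identity depends on the transcription factor PU.1, the product of Spi1, and their killing of engulfed microbes on a membrane oxidase built from the Cybb and Cyba proteins with cytosolic partners such as Ncf1 and Ncf4.

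Values are on a log scale made by RMA (robust multi-array averaging), taken as log2 since no source states the base, so a difference of 1 is a 2-fold difference, and brightness cannot be compared between probes. Each mean is given ± SD with n = 4 arrays. Tests were made in limma, each adjusted p takes in all 22206 probes by the Benjamini-Hochberg method, and the threshold is 0.05. Array medians lay between 5.98 and 6.14 and precision is set by having 4 arrays per age. Of 7 measured kidney markers none was among the 5550 dimmest probes, which is a description and no test of the labelled tissue, since levels of different probes are not comparable. In bulk tissue a change in the number of cells of a type and a change in the RNA per cell cannot be told apart.

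One mouse of the older group stood apart from the rest of its group. The mean difference of the 35 genes from their 8-week means, used below as a score, reached 2.15 in 28-week replicate 6, 1.89 in replicate 8 and 1.65 in replicate 9. In replicate 7 it was 0.09. The 8-week mice spanned -0.18 to 0.19, so replicate 7 lay inside the range of the younger mice. In 21 of the 35 genes the value of replicate 7 was within the range of the 8-week arrays, in 8 it was above it and in 6 below it, and over all probes it was within that range in 65.5%. Values without this mouse are given beside those with all 8 arrays. Since it stands apart by its low values in these same genes, larger differences and more calls without it follow in part from that choice and are no independent evidence.

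Of the 35 genes 31 were higher on average at 28 weeks and 4 were lower, and 1 gene, Cyth4, passed the threshold, where 0.446% of all probes passed in that direction. The median log2 difference of the 35 genes was 1.36, and that of all probes -0.01. Since the genes were chosen with earlier results of these data known, the shares of all probes beside these counts are a description and no independent support. In 18 genes the difference was at least 2-fold higher, against 2.31% of all probes, and in none was it at least 2-fold lower, against 0.856%. At an unadjusted p under 0.05, 24 genes differed, all of them higher at 28 weeks, against 8.36% of all probes in that direction. Without 28-week replicate 7, 22 genes passed in limma as higher, against 3.63% of all probes, and 0 as lower, against 1.95%. Those 22 included Cyth4, and the other 21 did not pass with all 8 arrays. Leaving out any other single array gave 0 of the 35 genes in limma, with 20 to 23 at an unadjusted p under 0.05.

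**Figure D1:**
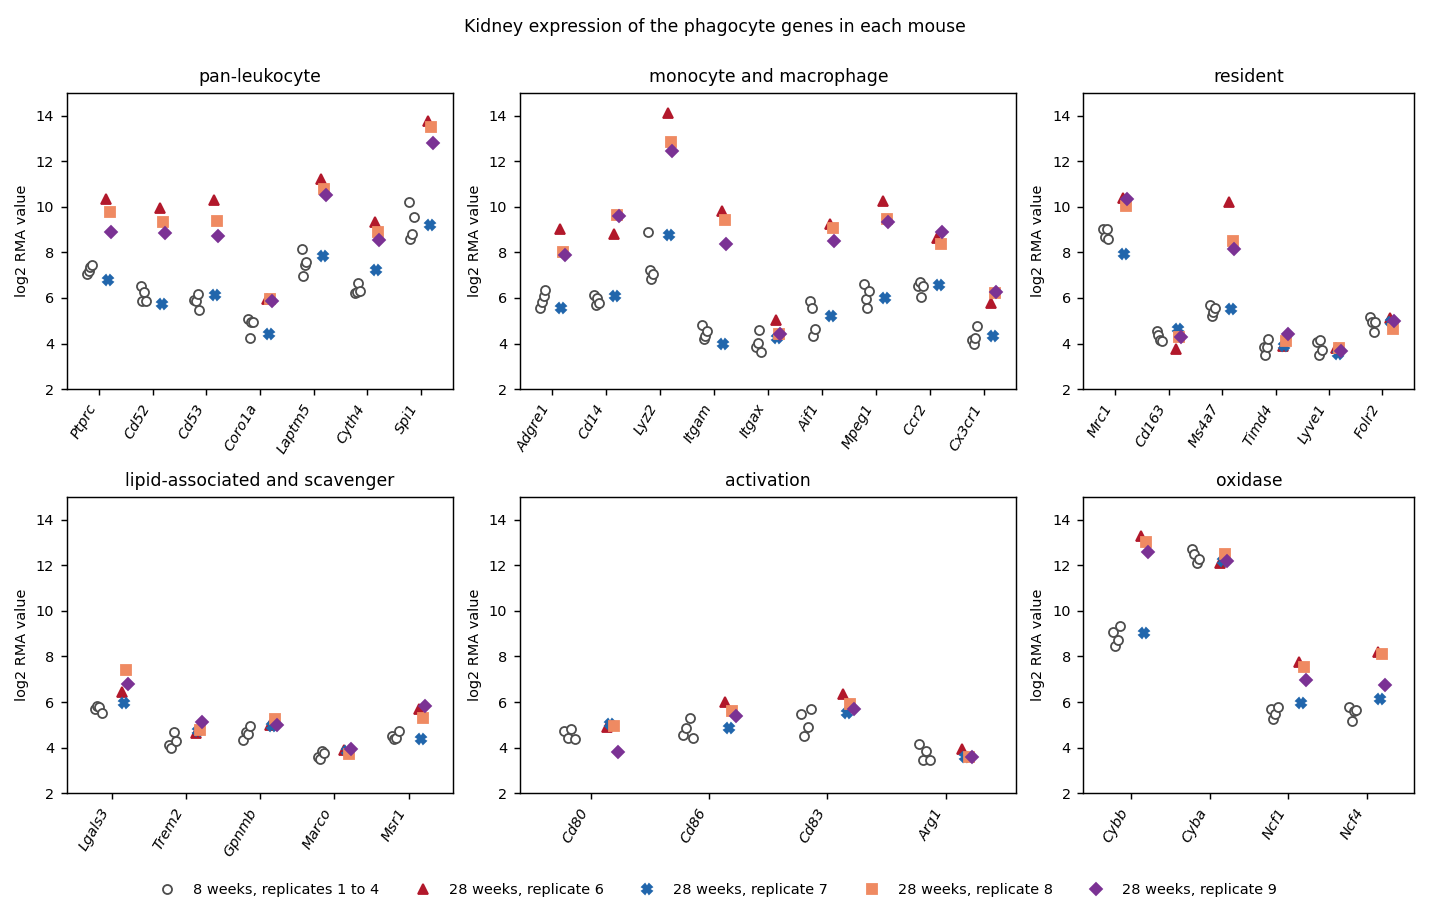
Log2 RMA value of each of the 35 genes in each of the 8 mice, by group of genes; open circles are the 8-week mice and filled symbols the 28-week mice, and heights cannot be compared between genes. In all 7 pan-leukocyte genes and 8 of the 9 monocyte and macrophage genes replicates 6, 8 and 9 lie above all 8-week mice. They do so in 25 of the 35 genes, against 9.47% of all probes. In Cyth4, Lgals3, Ncf1 and Ncf4 replicate 7 does too, and all other genes overlap between the ages. In Cyba, Folr2, Lyve1 and Arg1 no 28-week mouse lies above all 8-week mice.

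With all arrays, replicate 7 among them, the spread between mice was wider in the older group for most of these genes. The SD was larger at 28 than at 8 weeks in 25 of the 35 genes, and in 42.2% of all probes. The median log2 ratio of the SDs was 1.52 for the 35 genes and -0.2 for all probes. SDs without replicate 7 were not computed, so its part in this spread was not tested. Cybb was 9.03 in replicate 7 and 12.58 to 13.28 in the other older mice, against 8.44 to 9.33 at 8 weeks. Coro1a was 4.43 and 5.85 to 5.97, against 4.23 to 5.06. In Ms4a7 the older mice other than replicate 7 still ranged from 8.14 to 10.23, against 5.19 to 5.69 at 8 weeks. In 4 genes, Cyth4, Lgals3, Ncf1 and Ncf4, every older mouse was above every younger one, against 4.38% of all probes.

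Among genes expressed by leukocytes of all or most kinds, Cyth4, which encodes a guanine nucleotide exchange factor of ARF GTPases, rose at 28 weeks. Its values were 6.22, 6.28, 6.65 and 6.32 in 8-week replicates 1 to 4 and 9.33, 7.24, 8.9 and 8.53 in 28-week replicates 6 to 9 (means 6.37 ± 0.19 and 8.5 ± 0.9). All 4 older mice were above all 4 younger ones, and replicate 7 was the lowest of the older mice but did not reach down to the 8-week range. The rise was 4.38-fold (log2 difference 2.13, 95% interval 1.3 to 2.96, adjusted p = 0.0367). It was 5.87-fold without 28-week replicate 7, and leaving out any other single array ended the call, at adjusted p of up to 0.135.

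The other pan-leukocyte genes did not pass with all arrays. Laptm5, which encodes a lysosomal membrane protein of blood cells, was 8.16, 6.98, 7.46 and 7.57 in the 8-week mice and 11.22, 7.84, 10.8 and 10.5 in 28-week replicates 6 to 9 (means 7.54 ± 0.48 and 10.09 ± 1.53). Replicate 7 was the only older mouse within the younger range, and the log2 difference was 2.55 (adjusted p = 0.0897). Cd53, a leukocyte tetraspanin, was 5.89, 5.87, 6.19 and 5.48 at 8 weeks and 10.28, 6.12, 9.37 and 8.71 at 28 weeks (means 5.86 ± 0.29 and 8.62 ± 1.79). Its log2 difference was 2.76 with all arrays (adjusted p = 0.0969) and 3.6 without replicate 7.

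Ptprc, the gene of the common leukocyte antigen CD45, was 7.25 ± 0.18 at 8 weeks and 8.95 ± 1.55 at 28 weeks, with a log2 difference of 1.7. Cd52, a small glycoprotein of leukocyte membranes, was 6.13 ± 0.34 and 8.46 ± 1.88, with a log2 difference of 2.33. In both genes replicate 7 was below the lowest 8-week mouse. Coro1a, an actin regulator of leukocytes, was 5.06, 4.23, 4.96 and 4.95 at 8 weeks and 5.97, 4.43, 5.97 and 5.85 at 28 weeks (means 4.8 ± 0.38 and 5.55 ± 0.75). Its difference of 0.75 was the smallest of the pan-leukocyte genes (adjusted p = 0.342). All 7 pan-leukocyte genes passed without replicate 7, and the median log2 difference of the 7 was 2.33 with all arrays and 3.24 without that mouse. The 7 include Spi1, described next, which had the largest difference of the group. Spi1 is tied above to macrophage identity, so the group is not purely one of all leukocytes.

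Spi1, the gene of PU.1, was 10.2, 8.58, 8.81 and 9.54 in the 8-week mice and 13.74, 9.19, 13.51 and 12.78 in 28-week replicates 6 to 9 (means 9.28 ± 0.74 and 12.3 ± 2.12). Replicates 6, 8 and 9 were above all younger mice, and replicate 7 lay inside the younger range. The log2 difference was 3.02 (95% interval 1.09 to 4.96, adjusted p = 0.128), and 4.06 without replicate 7.

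The promoters of the genes were searched for the letters of PU.1 sites. RefSeq promoter windows of 300 bases on build GRCm38.p6 (250 before and 50 from a transcription start) were found for 27 of the 37 genes, with 31 windows among 32851 in all. For 17 of the 27 genes the start used by a window is the first base of the gene in RefSeq. For others, among them Laptm5, Itgax, Aif1 and Cybb, it is not. The stretches below are the 100 bases before the start used by the window. They are given for the genes with a 2-fold or greater difference that hold GAGGAA, the core of a PU.1 site, on either strand there. Itgax, the neighbour of Itgam, is given too, without a match. Mrc1 and Trem2, with smaller log2 differences of 0.85 and 0.55, also held GAGGAA in those 100 bases and are not shown. Capitals mark the match, written TTCCTC where it lies on the opposite strand.
Cd53 (chr3:106790150-106790249, minus strand): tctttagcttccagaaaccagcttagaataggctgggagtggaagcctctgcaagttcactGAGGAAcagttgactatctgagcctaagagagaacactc
Laptm5 (chr4:130913216-130913315, plus strand): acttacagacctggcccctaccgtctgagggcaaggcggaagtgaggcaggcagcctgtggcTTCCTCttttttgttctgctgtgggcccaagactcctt
Itgam (chr7:128062540-128062639, plus strand): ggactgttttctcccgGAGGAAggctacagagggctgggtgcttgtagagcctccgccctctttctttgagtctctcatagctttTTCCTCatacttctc
Itgax (chr7:128129450-128129549, plus strand): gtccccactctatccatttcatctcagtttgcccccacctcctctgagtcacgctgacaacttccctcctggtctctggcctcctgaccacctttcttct
Aif1 (chr17:35176053-35176152, minus strand): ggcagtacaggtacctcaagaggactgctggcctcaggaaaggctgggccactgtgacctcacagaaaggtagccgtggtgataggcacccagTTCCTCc

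Of the 31 windows of these genes 12 held GAGGAA on either strand (38.7%), against 28.3% of all windows. The longer form GAGGAAGT, in which GAGGAA is contained, was in 2 windows (6.45%, against 3.2% of all), those of Cyth4 and Cd53. The Ets-IRF composite element, a site of PU.1 with an interferon regulatory factor, was in 4 windows (12.9%, against 2.72% of all), those of Cybb, Cd68, Folr2 and Timd4. In Cyth4 and Cd53 the longer form followed the start. In Cybb the composite element followed the start used by its window, which is not the first base of the gene in RefSeq. Its place relative to the Cybb gene start was therefore not settled. These 30-base sites are shown because they hold the longer or composite form, with the match in capitals.
Cyth4 (chr15:78597062-78597091, plus strand): ggccagggctgACTTCCTCccacagggtct
Cd53 (chr3:106790125-106790154, minus strand): cactcagtctcACTTCCTCactcttctcgc
Cybb (chrX:9469300-9469329, minus strand): gctgctgtTTTCATTTCCtcatcagaagaa
These matches describe letters and not bound sites. They were found both in genes with large differences, such as Cybb, and in genes with small ones, such as Folr2 (composite element) and Marco (GAGGAA).

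The monocyte and macrophage genes had the highest median difference of the 6 groups, and none of the 9 measured passed with all arrays. In limma 8 of the 9 had an unadjusted p under 0.05, against 15.0% of all probes in either direction. Lyz2, the lysozyme gene of myeloid cells, was 8.9, 7.22, 6.84 and 7.05 in the 8-week mice and 14.1, 8.78, 12.83 and 12.45 in 28-week replicates 6 to 9 (means 7.5 ± 0.94 and 12.04 ± 2.28). The groups overlapped only through 8-week replicate 1, the highest of the younger mice, and 28-week replicate 7, the lowest of the older ones. The difference was 23.2-fold (log2 difference 4.54, 95% interval 2.4 to 6.67, adjusted p = 0.0607), the third largest increase of all 22206 probes. Without replicate 7 it was 49.3-fold.

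Cd14, a co-receptor for bacterial lipopolysaccharide, was 6.12, 5.7, 6.01 and 5.77 at 8 weeks and 8.82, 6.09, 9.62 and 9.6 at 28 weeks (means 5.9 ± 0.2 and 8.53 ± 1.67). Replicate 7 was again inside the younger range, and the log2 difference was 2.63 (adjusted p = 0.0923). Ccr2, the receptor by which inflammatory monocytes respond to the chemokine Ccl2, was 6.54, 6.69, 6.05 and 6.52 at 8 weeks and 8.64, 6.55, 8.38 and 8.9 at 28 weeks (means 6.45 ± 0.28 and 8.12 ± 1.07), with a log2 difference of 1.67 (adjusted p = 0.105). In both genes replicates 6, 8 and 9 were above all younger mice.

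Itgam and Itgax encode the alpha chains CD11b and CD11c of related integrins and lie side by side on chromosome 7 with 0 protein-coding genes between them. Itgam was 4.8, 4.21, 4.32 and 4.56 at 8 weeks and 9.81, 3.97, 9.42 and 8.35 at 28 weeks (means 4.47 ± 0.26 and 7.89 ± 2.68). Its difference was 10.7-fold with all arrays (adjusted p = 0.147) and 26.4-fold without replicate 7. Itgax was 3.84, 4.02, 4.59 and 3.64 at 8 weeks and 5.04, 4.24, 4.44 and 4.43 at 28 weeks (means 4.02 ± 0.41 and 4.54 ± 0.35), so the ages overlapped and only replicate 6 was above all younger mice. The log2 difference of Itgax was 0.52 (95% interval -0.01 to 1.04, adjusted p = 0.346), and it was the 1 gene of the 9 monocyte and macrophage genes measured that did not pass without replicate 7. Its probe was among the 5550 dimmest.

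Of the remaining genes of this kind, Adgre1, a classical mouse macrophage marker, was 5.96 ± 0.32 at 8 weeks and 7.62 ± 1.48 at 28 weeks (log2 difference 1.67). Aif1, which encodes the actin-binding protein IBA1, was 5.1 ± 0.72 and 8.01 ± 1.89 (log2 difference 2.91). Mpeg1, the gene of the pore-forming protein perforin-2, was 6.11 ± 0.46 and 8.75 ± 1.88 (log2 difference 2.64). Cx3cr1, the fractalkine receptor of patrolling monocytes and many tissue macrophages, was 4.29 ± 0.34 and 5.65 ± 0.9 (log2 difference 1.36). None of these 4 passed with all arrays, at adjusted p from 0.11 to 0.208, and each passed without replicate 7. The median log2 difference of the 9 genes was 2.63, and 3.45 without that mouse.

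**Figure D2:**
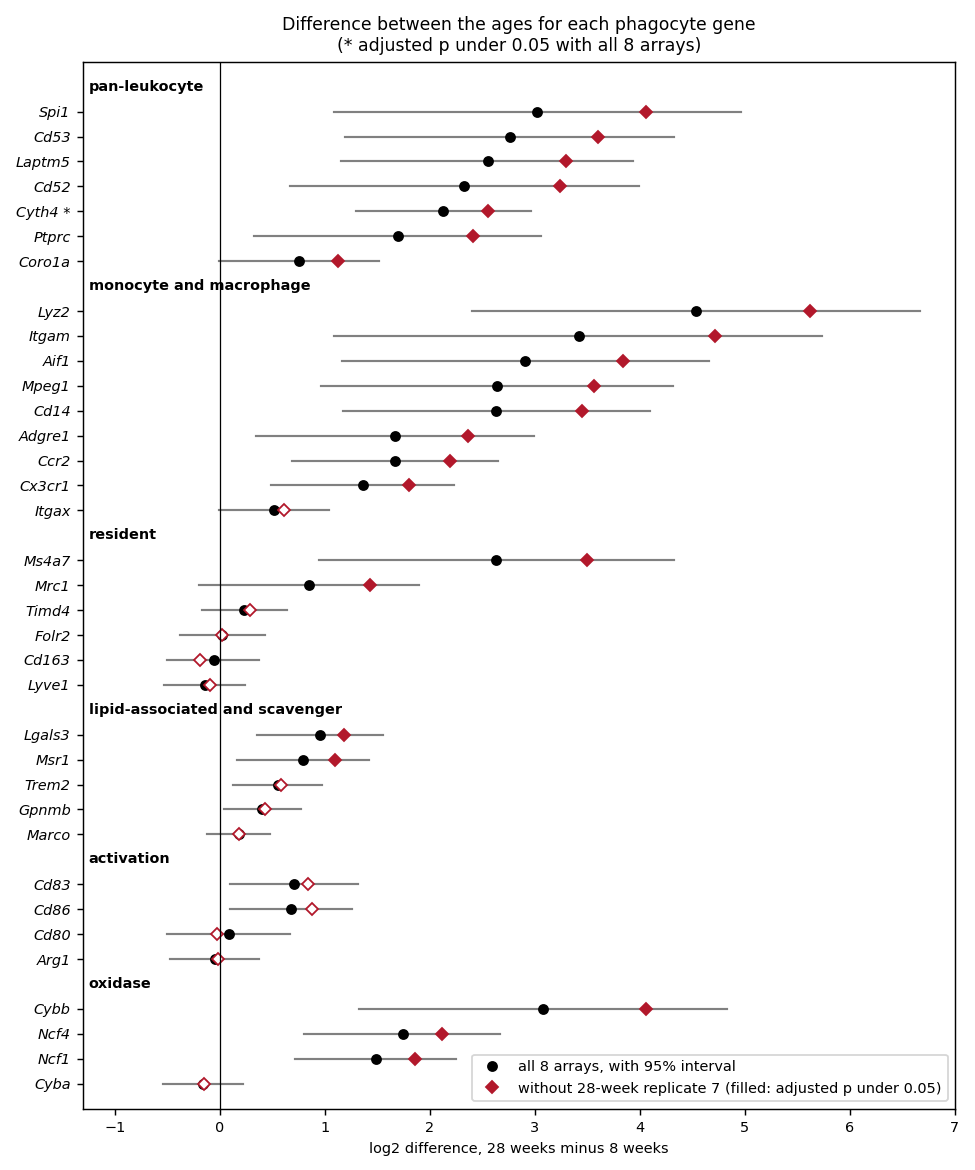
Log2 difference, 28 weeks minus 8 weeks, of each gene with all 8 arrays (black circles, with the 95% interval from limma) and without 28-week replicate 7 (diamonds, filled where adjusted p was under 0.05). Cyth4 is the one gene past the threshold with all arrays, and 22 diamonds are filled, most of them among leukocyte, monocyte and oxidase genes.

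Of 6 measured genes grouped as resident none passed with all arrays in limma. Only 1 of the 6, Ms4a7, had an unadjusted p under 0.05 there. That count is near the background of 15.0% of all probes in either direction. Ms4a7 is not among the resident genes named at the start, and whether it marks resident cells here was not tested. Ms4a7, a membrane protein gene of mature macrophages, was 5.69, 5.19, 5.39 and 5.55 at 8 weeks and 10.23, 5.51, 8.48 and 8.14 at 28 weeks (means 5.46 ± 0.22 and 8.09 ± 1.95). Replicates 6, 8 and 9 were above all younger mice and replicate 7 was inside the younger range. Ms4a7 had a log2 difference of 2.63 (adjusted p = 0.13) and 3.5 without replicate 7. Mrc1, the mannose receptor gene, was 9.04, 8.67, 9.02 and 8.6 at 8 weeks and 10.39, 7.95, 10.03 and 10.36 at 28 weeks (means 8.83 ± 0.23 and 9.68 ± 1.17). In replicate 7 it was below every 8-week mouse, and the log2 difference was 0.85 with all arrays (adjusted p = 0.455) and 1.43 without that mouse.

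The other resident genes also overlapped between the ages. Timd4, a receptor for phosphatidylserine on dying cells, was 3.85, 3.51, 3.86 and 4.18 at 8 weeks and 3.9, 3.91, 4.1 and 4.42 at 28 weeks (means 3.85 ± 0.27 and 4.08 ± 0.24). Folr2, a folate receptor gene, was 5.18, 4.95, 4.49 and 4.95 at 8 weeks and 5.13, 4.93, 4.62 and 4.98 at 28 weeks (means 4.89 ± 0.29 and 4.92 ± 0.21), and no older mouse was outside the younger range. The log2 difference was 0.23 for Timd4 and 0.02 for Folr2, with a 95% interval for Folr2 of -0.38 to 0.43.

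Cd163, the scavenger receptor for haemoglobin-haptoglobin complexes, was 4.3 ± 0.19 at 8 weeks and 4.24 ± 0.36 at 28 weeks. Lyve1, a hyaluronan receptor also made by lymphatic endothelium, was 3.86 ± 0.31 and 3.71 ± 0.12. The log2 difference was -0.06 for Cd163 (95% interval -0.5 to 0.37), which was 0.1 without 28-week replicate 6 and 0.02 without 8-week replicate 1, and -0.14 for Lyve1 (95% interval -0.53 to 0.24). The probes of Cd163, Timd4 and Lyve1 were among the 5550 dimmest of all probes, with means over the 8 arrays under 4.33, and RMA gives no call of detection, so a change in these genes may not have been measurable. The median log2 difference of the 6 resident genes was 0.13, and 2 of the 6 passed without replicate 7.

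All 5 genes of lipid-associated and scavenging macrophages had positive differences, and none passed with all arrays in limma. Of the 5 genes 4 had an unadjusted p under 0.05 there, against 15.0% of all probes in either direction. Lgals3, which encodes galectin-3, was 5.68, 5.81, 5.78 and 5.52 at 8 weeks and 6.42, 5.96, 7.42 and 6.79 at 28 weeks (means 5.7 ± 0.13 and 6.65 ± 0.62). All 4 older mice were above all younger ones, and the log2 difference was 0.95 (adjusted p = 0.123). Msr1, the class A scavenger receptor gene, was 4.51, 4.39, 4.43 and 4.74 at 8 weeks and 5.7, 4.38, 5.31 and 5.84 at 28 weeks (means 4.52 ± 0.16 and 5.31 ± 0.66, log2 difference 0.79, adjusted p = 0.214). Lgals3 and Msr1 were among the 22 genes that passed without replicate 7.

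Trem2, a lipid-sensing receptor of phagocytes, was 4.13, 3.97, 4.69 and 4.28 at 8 weeks and 4.65, 4.72, 4.76 and 5.14 at 28 weeks (means 4.27 ± 0.31 and 4.82 ± 0.22). Replicate 7 was not low in this gene, and it was replicate 6 that lay inside the younger range. The log2 difference was 0.55 with all arrays (adjusted p = 0.185) and 0.58 without replicate 7. Gpnmb, a glycoprotein gene of lipid-laden macrophages, was 4.65 ± 0.26 at 8 weeks and 5.05 ± 0.14 at 28 weeks, a log2 difference of 0.4. Marco, a scavenger receptor for bacteria, was 3.59, 3.52, 3.84 and 3.76 at 8 weeks and 3.91, 3.85, 3.74 and 3.93 at 28 weeks (means 3.68 ± 0.15 and 3.86 ± 0.09), with a log2 difference of 0.18 (95% interval -0.12 to 0.48). The ages overlapped in Gpnmb and Marco too, and the Marco probe was among the 5550 dimmest. The median log2 difference of the 5 genes was 0.55, and 0.58 without replicate 7.

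By their brightest probes, none of the 4 activation genes passed in limma with or without replicate 7. With all arrays 2 of the 4 had an unadjusted p under 0.05, against 15.0% of all probes in either direction. Cd86, a ligand of the co-stimulatory receptor CD28 of T cells, was 4.57, 4.85, 5.28 and 4.44 at 8 weeks and 6.02, 4.87, 5.59 and 5.39 at 28 weeks (means 4.79 ± 0.37 and 5.47 ± 0.48, log2 difference 0.68, adjusted p = 0.241). Cd80, the other CD28 ligand, was 4.74, 4.44, 4.8 and 4.36 at 8 weeks and 4.9, 5.02, 4.95 and 3.82 at 28 weeks (means 4.58 ± 0.22 and 4.67 ± 0.57). Replicate 9 was the lowest and replicate 7 the highest of all 8 mice in Cd80, and the log2 difference was 0.09 (95% interval -0.5 to 0.67).

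Cd83, a surface protein of activated antigen-presenting cells, had 2 probes. The brighter was 5.48, 4.53, 4.92 and 5.7 at 8 weeks and 6.36, 5.5, 5.91 and 5.71 at 28 weeks (means 5.16 ± 0.53 and 5.87 ± 0.37, log2 difference 0.71, adjusted p = 0.247). The dimmer did not overlap between the ages, with a log2 difference of 0.93 (adjusted p = 0.126), and it passed without replicate 7 where the brighter one did not. Arg1, the arginase gene of alternatively activated macrophages, was 4.18, 3.44, 3.86 and 3.46 at 8 weeks and 3.93, 3.61, 3.59 and 3.61 at 28 weeks (means 3.73 ± 0.35 and 3.68 ± 0.16). The Arg1 probe was among the 5550 dimmest, and the log2 difference was -0.05 (95% interval -0.47 to 0.37), and 0.1 without 8-week replicate 1.

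In the phagocyte oxidase, Cybb, Ncf1 and Ncf4 had an unadjusted p under 0.05 in limma and Cyba did not, and none of the 4 passed with all arrays. Over all probes 15.0% had such an unadjusted p in either direction. Cybb, which encodes the catalytic subunit gp91phox, was 9.06, 8.44, 8.73 and 9.33 at 8 weeks and 13.28, 9.03, 13 and 12.58 at 28 weeks (means 8.89 ± 0.39 and 11.97 ± 1.98). Replicate 7 was within the younger range and the other older mice were above all younger ones. The difference was 8.47-fold with all arrays (adjusted p = 0.0966) and 16.7-fold without replicate 7.

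The cytosolic subunits had smaller differences. Ncf1, the p47phox gene, was 5.71, 5.27, 5.48 and 5.78 at 8 weeks and 7.75, 5.94, 7.54 and 6.96 at 28 weeks (means 5.56 ± 0.23 and 7.05 ± 0.81). Ncf4, the p40phox gene, was 5.79, 5.19, 5.6 and 5.64 at 8 weeks and 8.2, 6.12, 8.09 and 6.75 at 28 weeks (means 5.55 ± 0.26 and 7.29 ± 1.02). In both genes the ages did not overlap, with log2 differences of 1.49 and 1.74 and adjusted p of 0.0776 and 0.0866. Both passed without replicate 7, at 3.62-fold and 4.36-fold.

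Cyba, which encodes p22phox, the membrane partner of both Cybb and the kidney oxidase Nox4, was 12.71, 12.51, 12.1 and 12.29 at 8 weeks and 12.08, 12.2, 12.5 and 12.18 at 28 weeks (means 12.4 ± 0.26 and 12.24 ± 0.18). The ages overlapped and the lowest value of all was in replicate 6, the mouse with the highest Cybb. The log2 difference was -0.16 (95% interval -0.54 to 0.22, adjusted p = 0.739). That interval does not include the log2 difference of 1 that a 2-fold change would give. Nox4, the oxidase of tubule epithelium, was 16.15 ± 0.46 at 8 weeks and 15.26 ± 0.44 at 28 weeks, a log2 difference of -0.88 (adjusted p = 0.15), and it passed as lower without replicate 7. Rac2, the GTPase of the phagocyte oxidase, had a log2 difference of 2.33 (adjusted p = 0.174).

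**Figure D3:**
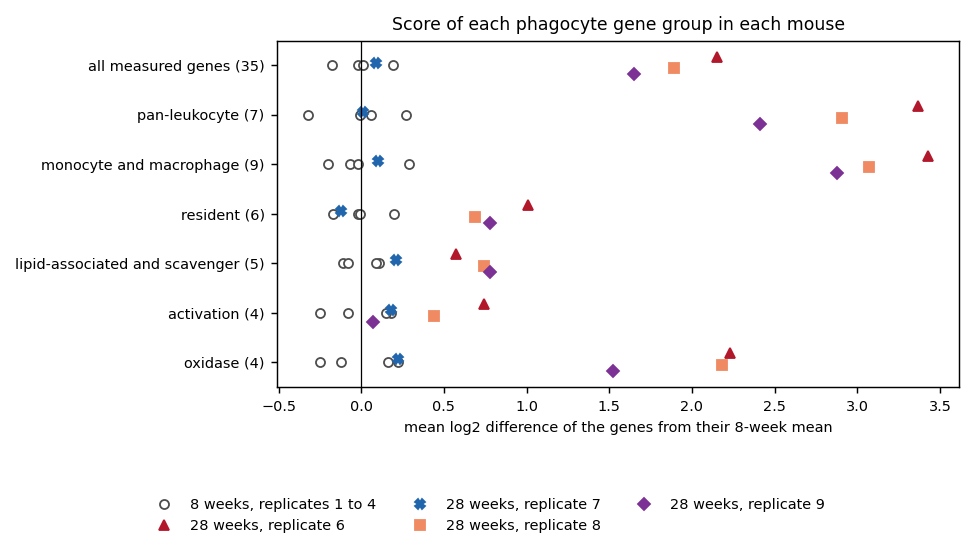
Mean log2 difference of the genes of each group from their 8-week means, per mouse, with the number of measured genes in brackets and symbols spread vertically for sight. Replicates 6, 8 and 9 lie between 2.41 and 3.43 for the pan-leukocyte and monocyte groups and between 0.57 and 1.01 for the resident and lipid-associated groups, where the resident score rests on Ms4a7 and Mrc1 (median difference of the 6 genes 0.13), and replicate 7 lies near the 8-week mice in each.

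The 3 older mice other than replicate 7 did not rank alike in every group of genes. Replicate 6 was the highest of the 28-week mice in 23 of the 35 genes, against 25.6% of all probes, and in all 7 pan-leukocyte genes. The pan-leukocyte score was 3.37 in replicate 6, 2.91 in replicate 8 and 2.41 in replicate 9, and 0.01 in replicate 7. In the 5 lipid-associated and scavenger genes the order ran the other way, with 0.57 in replicate 6, 0.74 in replicate 8 and 0.78 in replicate 9, and replicate 6 was the highest mouse in 0 of the 5. Replicate 7 had a score of 0.21 in these genes, above the highest 8-week score of 0.11. The oxidase scores were 2.23, 2.18 and 1.52 in replicates 6, 8 and 9, and the activation scores 0.74, 0.44 and 0.07. These are descriptions of single mice and were not tested.

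Genes of the same pathways that are not in the group of 37 were examined in lists. In the macrophage growth factor list 1 of 6 measured genes passed: Csf1, the growth factor of macrophages, rose 4.38-fold (7.91 ± 0.31 at 8 weeks and 10.04 ± 0.81 at 28 weeks, adjusted p = 0.0309). Its value in replicate 7 was 8.85, above all 8-week mice. Its receptor gene Csf1r was 10.18 ± 0.59 and 11.34 ± 0.4 without overlap between the ages (adjusted p = 0.0976), and Il34, the other ligand of that receptor, had a log2 difference of 0.71 (adjusted p = 0.111).

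In the Trem2 and lipid list 1 of 12 passed: Apoe, a lipid carrier made by macrophages and other cells, rose 2.21-fold (adjusted p = 0.0367), with 15.34 in replicate 7 against at most 14.92 at 8 weeks. The Trem2 signalling partner Tyrobp had a log2 difference of 2.22 (adjusted p = 0.115). In the inflammatory list 1 of 6 passed, the prostaglandin synthase gene Ptgs2 (2.1-fold, adjusted p = 0.0309). Csf1, Apoe and Ptgs2 were higher in replicate 7 than in every 8-week mouse. They are named for passing with all 8 arrays, which favours genes without a low value in that mouse, so this is no separate result. All 3 genes passed without replicate 7. Without 8-week replicate 1, 1 gene of all lists passed, and without any other single array 0 passed in limma. Under those other settings 36 to 43 of the 123 list entries, and 2596 to 3223 of all 22206 probes, had an unadjusted p under 0.05.

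None of 6 monocyte-attracting, 11 engulfment, 7 alternative activation, 8 myeloid transcription factor and 9 oxidase-related genes passed in limma with all arrays. At an unadjusted p under 0.05 in either direction the counts were 4, 5, 1, 3 and 3, against 15.0% of all probes, so that 1 of 7 alternative activation genes is near the background. The median log2 differences were 1.16, 0.19, 0.31, 0.15 and 0.05. The monocyte attractant Ccl2 had a log2 difference of 1.17 without overlap between the ages (adjusted p = 0.0754), and the fractalkine gene Cx3cl1 one of 1.15 (adjusted p = 0.106). The engulfment genes Axl and Pros1 had differences of 1.29 and 1.06, and the related receptor gene Mertk one of -0.44, each with an adjusted p above the threshold. Among alternative activation genes the smallest p were those of Ccl22 and Clec10a, with differences of 0.7 and 0.33. The transcription factor genes Runx1 and Maf had differences of 1.29 and -0.98 (adjusted p = 0.0543 and 0.0606), and Irf8 one of 0.32. Without replicate 7, 29 genes of these lists and of the cell type lists passed, against 3 with all arrays, where 5.57% and 0.968% of all probes passed in either direction.

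**Figure D4:**
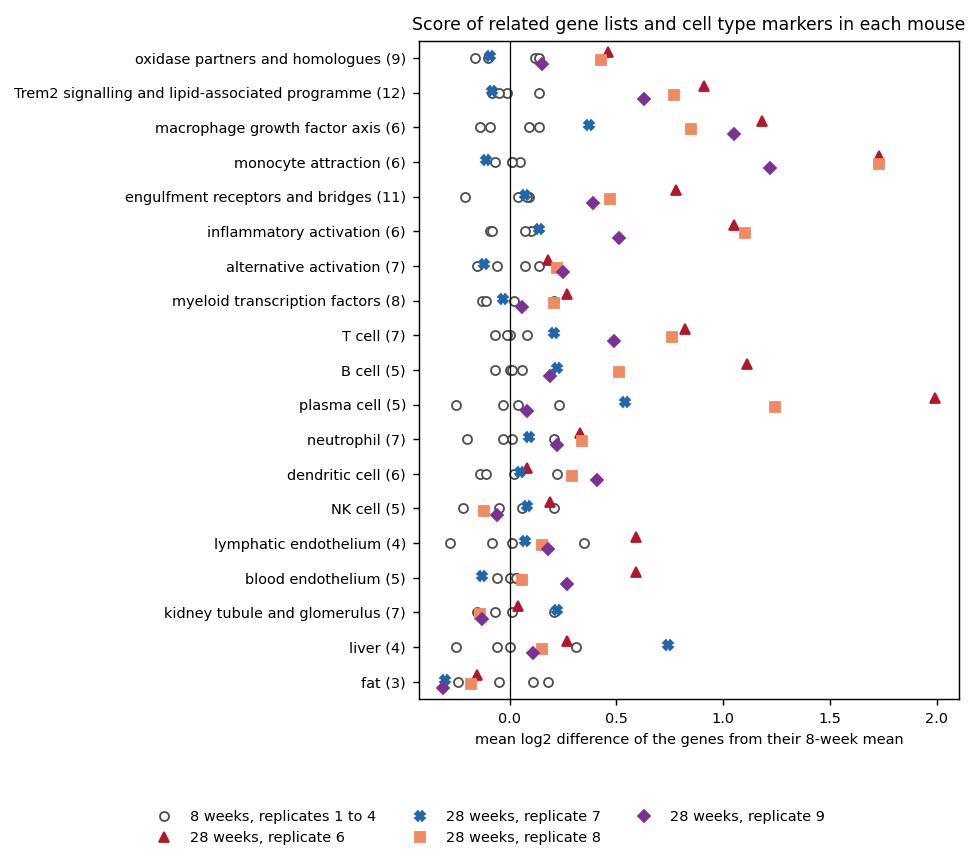
Mean log2 difference from the 8-week means, per mouse, for lists of related genes and of markers of other cell types, with the number of measured genes in brackets and symbols spread vertically for sight. Replicates 6, 8 and 9 lie at 0.85 to 1.73 for monocyte attraction and macrophage growth factor genes, and the natural killer cell scores of the older mice lie within -0.12 to 0.19.

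Markers of other leukocytes are given because several of the phagocyte genes are shared with them. No marker of 7 T cell, 5 B cell, 5 plasma cell, 7 neutrophil, 6 dendritic cell or 5 natural killer cell genes passed in limma with all arrays. At an unadjusted p under 0.05 in either direction the counts were 4, 2, 1, 1, 1 and 0, against 15.0% of all probes, and the last 4 of these are near that background or below it. The median log2 differences were 0.52, 0.27, 0.05, 0.09, 0.06 and 0.02. The scores in replicates 6, 7, 8 and 9 were 0.82, 0.21, 0.76 and 0.49 for T cells, 1.11, 0.22, 0.51 and 0.19 for B cells and 0.33, 0.09, 0.34 and 0.22 for neutrophils, where the 8-week mice reached at most 0.08, 0.06 and 0.21. The plasma cell scores were 1.99, 0.54, 1.24 and 0.08, and at most 0.23 at 8 weeks, and they rest mostly on Jchain, the antibody joining chain gene. Jchain was 12.79, 7.52, 10.47 and 5.83 in replicates 6 to 9 against a mean of 4.38 at 8 weeks. Mzb1 had a log2 difference of 0.55, with 5.31 in replicate 6 against at most 3.59 at 8 weeks. Xbp1, Tnfrsf17 and Prdm1 had log2 differences of 0.05, -0.21 and -0.34. All 5 B cell probes, 4 of 6 dendritic cell and 4 of 5 natural killer cell probes were among the 5550 dimmest. So were 1 of 7 T cell, 2 of 5 plasma cell and 2 of 7 neutrophil probes, among them that of S100a8. The neutrophil gene S100a8 was 3.41 ± 0.02 at 8 weeks and 3.54 ± 0.19 at 28 weeks, while another neutrophil gene, Csf3r, did not overlap between the ages (log2 difference 1.3, adjusted p = 0.0853).

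Other members of these lists with the smallest p were Cd3e (1.08) and Cd3d (0.42), Cd79a and Cd79b (0.96 each), Jchain (4.77, adjusted p = 0.0971) and Prdm1 (-0.34), Xcr1 (1.19) and Zbtb46 (-0.18), and Gzma (0.25) and Ncr1 (-0.19), given as log2 differences. For lymphatic and blood endothelium they were Pdpn (0.36), Prox1 (0.46), Cdh5 (0.68) and Kdr (-0.4), for the kidney list Slc12a1 (0.99), for liver Ttr (0.8) and Alb (0.7), and for fat Adipoq (-0.41) and Plin1 (-0.16). Slc34a1, also of the kidney list, had a log2 difference of -0.57. Alb was highest in replicate 7, at 11.36 against at most 9.83 at 8 weeks, and its difference was 0.36 without that mouse. The part of these cells in the differences of the phagocyte genes was not tested.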

How the data were processed

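Kidney RNA of 8 mice was measured, 1 array per mouse. The values deposited by the authors are on a log scale taken here as log2, as RMA gives. RMA is named in the submitters' processing notes, with no settings and no log base stated. Values ran from 2.31 to 19.89, and every fold rests on base 2. RMA compresses the folds of dim probes. Groups were taken from the labels, which name no scan date or batch. The platform annotation named 19572 probes, none with several symbols, and left 2634 unnamed. The brightest probe stood for a gene with several.

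All 22206 probes were fitted without a filter in limma 3.58.1 under R 4.3.3 with lmFit and eBayes (4.13 prior degrees of freedom), after a test on simulated data. Scores are mean differences from the 8-week means. The genes and the 19 other lists (135 entries, 123 on a named probe) were chosen with earlier results of these data known, so their differences are not independent support.

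Every measured gene of the 37 is named with its means and difference. Per-array values are given for genes past the threshold, for the 3 smallest p and the largest p of each group, and for Spi1 and Itgam, added after their values were seen. Of each list up to 3 genes past the threshold are named, or the 2 with the smallest p, plus 12 fixed genes, 10 of them on a named probe. Results were recomputed with other normalizations, dim probes filtered, the dimmer probe, other variance models and thresholds, and arrays left out. Promoter sequences are from RefSeq (GRCm38.p6). Python 3.11.15 with pandas 2.3.3 and matplotlib 3.10.9 made the tables and plots.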

Additional observations from a re-analysis of the deposited data

Results flagged for a closer look

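Single mice stood apart from the other 3 of their age in 7 gene values and in 1 group score, by a gap to the nearest mouse past Dixon's 95% critical value for 4 mice. Of 84 sets of 4 values examined, chance gives about 1 in 20. In 28-week replicate 7 the value was low for Coro1a (4.43, others 5.85 to 5.97), Mrc1 (7.95, others 10.03 to 10.39) and Cybb (9.03, others 12.58 to 13.28), and the monocyte and macrophage score was 0.1, with the others at 2.88 to 3.43.

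In 28-week replicate 9 Cd80 was low at 3.82 (others 4.9 to 5.02). In replicate 8 Gpnmb was high at 5.26 (others 4.96 to 5), and in replicate 6 Arg1 was high at 3.93 (others 3.59 to 3.61). At 8 weeks Coro1a was low in replicate 2 at 4.23 (others 4.95 to 5.06).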

How the results depend on the processing

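No paired analysis was possible because the ages share no replicate numbers. With all arrays 215 probes, 1 of the 35 genes (Cyth4) and 3 of the genes in the related lists passed. With array quality weights the counts were 873, 14 and 15, with the 11101 brighter probes alone 399 and 2 for probes and genes, with trend and robust options 399 probes and 5 related genes, and with arrays centred on ribosomal protein genes 2 genes and 5 related genes. With the 14804 brightest probes 5 related genes passed. An unmoderated test with unequal variances called 0 of each after adjustment, and 2568, 10 and 33 at an unadjusted p under 0.05. At an adjusted p under 0.01 the counts were 18, 0 and 0, and under 0.1 they were 689, 8 and 10. Leaving out 1 array gave 25 to 1237 probes, 0 to 22 genes and 0 to 29 related genes, the highest of each without 28-week replicate 7. Leaving out any other array gave 0 of the 35 genes in limma, with 20 to 23 at an unadjusted p under 0.05. Without both 8-week replicate 1 and 28-week replicate 7, the younger mouse with the highest and the older mouse with the lowest score, chosen after seeing the data and so bound to widen the difference, the counts were 1384, 22 and 26. The 11101 brighter probes held 20 of the 35 genes. The median difference of all 35 genes ran from 1.15 to 1.8 with 1 array left out. The difference of Folr2, 0.02, was -0.04 with array medians subtracted and -0.01 centred on ribosomal protein genes, and -0.11 to 0.12 with 1 array left out. That of Arg1, -0.05, was 0.06 with array weights, 0.12 without both arrays and -0.15 to 0.1 with 1 left out. Those of Cd163 and Cd80 were -0.19 to 0.1 and -0.03 to 0.37 with 1 left out. The other 31 genes kept their sign in every setting run. The causes were not tested.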
